A study of Mus musculus with 15 samples.

Results

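Expression of Wnt ligands, their receptors and their modulators was examined in RNA from sorted alpha, beta and delta cells of mouse pancreatic islets. The genes were taken by symbol. They comprised every numbered Wnt, Fzd, Rspo, Dkk and Sfrp gene, Lgr4 to Lgr6, Lrp5 and Lrp6, Axin1 and Axin2, Ctnnb1, Tcf7, Tcf7l1, Tcf7l2 and Lef1, which gave 53 of the 38283 genes in the deposited table. The question was which of them differed between the 3 endocrine cell types. All samples came from C57BL/6 mice. Alpha cells (n = 5) were sorted from Glu-Venus mice, in which the proglucagon promoter drives the fluorescent protein Venus, and beta cells (n = 4) were the Venus-negative islet cells of the same line gated on scatter and autofluorescence. Delta cells (n = 6) were sorted by EYFP from Sst-CreXROSA26EYFP/EYFP mice, in which Cre recombinase made under the somatostatin promoter switches on the fluorescent protein EYFP. Each sample was a pool of islets from several mice, so p-values measured the spread between pools. The delta cells differed from the others in mouse line and fluorophore as well as in cell type, and these cannot be told apart here.

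Wnt proteins are secreted, lipid-modified ligands that bind Frizzled receptors together with the co-receptors LRP5 or LRP6. In the canonical branch, binding halts the destruction of beta-catenin by a complex built on AXIN, and beta-catenin then acts with TCF/LEF factors on target genes. R-spondins bind LGR4, LGR5 or LGR6 and keep the ubiquitin ligases RNF43 and ZNRF3 from removing Frizzled receptors, whereas secreted Frizzled-related proteins bind Wnts outside the cell and Dickkopf proteins bind LRP5 and LRP6. In the pancreas the pathway is known for its part in organ growth, and TCF7L2 is well known in diabetes genetics.

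Values were FPKM, read fragments scaled to transcript length and to the mapped total of the library, so that levels of different genes can be set side by side. The table gave no read totals. From the spacing of low values, depth could be worked out as 7.48 M to 30.5 M reads in alpha 2 and 5 and delta 1 to 4. For the other 9 samples it is unknown, so no limit of detection is given and a 0 in the table is written as listed at 0. Between 14761 and 18559 genes had a value above 0 in a sample. The libraries fell into 2 sets by their total over 81 ribosomal protein genes, with 65329 to 140065 in alpha 1, 2 and 3, beta 2 and delta 1 and 2, and 7871 to 38603 FPKM in the other 9. Both sets held all 3 cell types, and values within each set are given for some of the genes described. The summed level of the 5 alpha cell markers was in delta cells 0.205% and in beta cells 0.391% of that in alpha cells. The summed level of the 4 delta cell markers was 1.38% of the delta cell level in alpha cells and 0.103% in beta cells. For the 6 beta cell markers it was 2.01% of the beta cell level in alpha cells and 1.97% in delta cells. The pancreatic polypeptide gene Ppy was at 17730 to 41390 FPKM in alpha samples and 10860 to 48600 in delta samples, against 17.0 to 98.1 in beta samples.

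Of the 53 genes, 18 had a mean above 1 FPKM in at least 1 cell type and were tested. They were 3 of 19 ligands, 4 of 10 Frizzled receptors, both co-receptors, 3 of 7 Lgr receptors and R-spondins, 1 of 8 secreted inhibitors and 5 of 7 genes for Axin, beta-catenin and TCF/LEF factors. Of these 18, 10 passed 1 FPKM in all 3 cell types, 2 passed in 2, and 6 passed through 1 cell type alone: Fzd7 through beta cells, Fzd8, Lgr5 and Wnt9a through delta cells, and Tcf7l1 and Wnt5a through alpha cells. A gene that passed through 1 cell type alone had a head start in any test of a difference. Another 22 genes had a value in at least 1 sample but stayed at or below 1 FPKM on average. The last 13, namely Dkk3, Dkk4, Fzd9, Fzd10, Rspo2, Sfrp4, Wnt1, Wnt2, Wnt3, Wnt3a, Wnt6, Wnt8a and Wnt11, were listed at 0 in all 15 samples.

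Across the 3 cell types, 7 of the 18 tested genes differed (limma F-test on log2(FPKM + 1), Benjamini-Hochberg adjusted p under 0.05), namely Wnt4, Wnt9a, Sfrp5, Rspo4, Lgr5, Lrp5 and Fzd7. Over all 14405 genes tested, 16.0% did so. In beta relative to alpha cells 1 of the 18 was higher (Fzd7) and 1 lower (Sfrp5), where 7.66% of all genes were called, 2.84% higher and 4.82% lower. In delta relative to alpha cells 4 were higher (Lgr5, Lrp5, Rspo4 and Wnt9a) and 2 lower (Sfrp5 and Wnt4), beside 6.81% of all genes, 5.33% higher and 1.48% lower. In delta relative to beta cells 4 were higher (Lgr5, Rspo4, Sfrp5 and Wnt9a) and 1 lower (Wnt4), beside 14.7% of all genes, 11.7% higher and 2.99% lower. Lgr5, Rspo4 and Wnt9a were called higher in delta cells relative to alpha and to beta cells, as were 3.65% of all genes tested, and Wnt4 was called lower relative to both, as were 0.333%. These 2 comparisons share the delta samples.

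The median difference of the 18 genes on the log2(FPKM + 1) scale was 0.06 in beta relative to alpha cells, 0.51 in delta relative to alpha cells and 0.48 in delta relative to beta cells, beside −0.13, 0.13 and 0.30 for all genes tested. Dividing by median-ratio size factors shifted that median over all genes by 0.13, −0.12 and −0.28, respectively. It also moved the share of calls that were higher, from 37% to 52.7% in beta relative to alpha cells, from 78.3% to 67.9% in delta relative to alpha cells and from 79.6% to 51.5% in delta relative to beta cells, and quantile normalization gave 47.6%, 56.8% and 50.9%. No difference of a named member described as a call changed direction under either scaling.

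**Figure D1:**
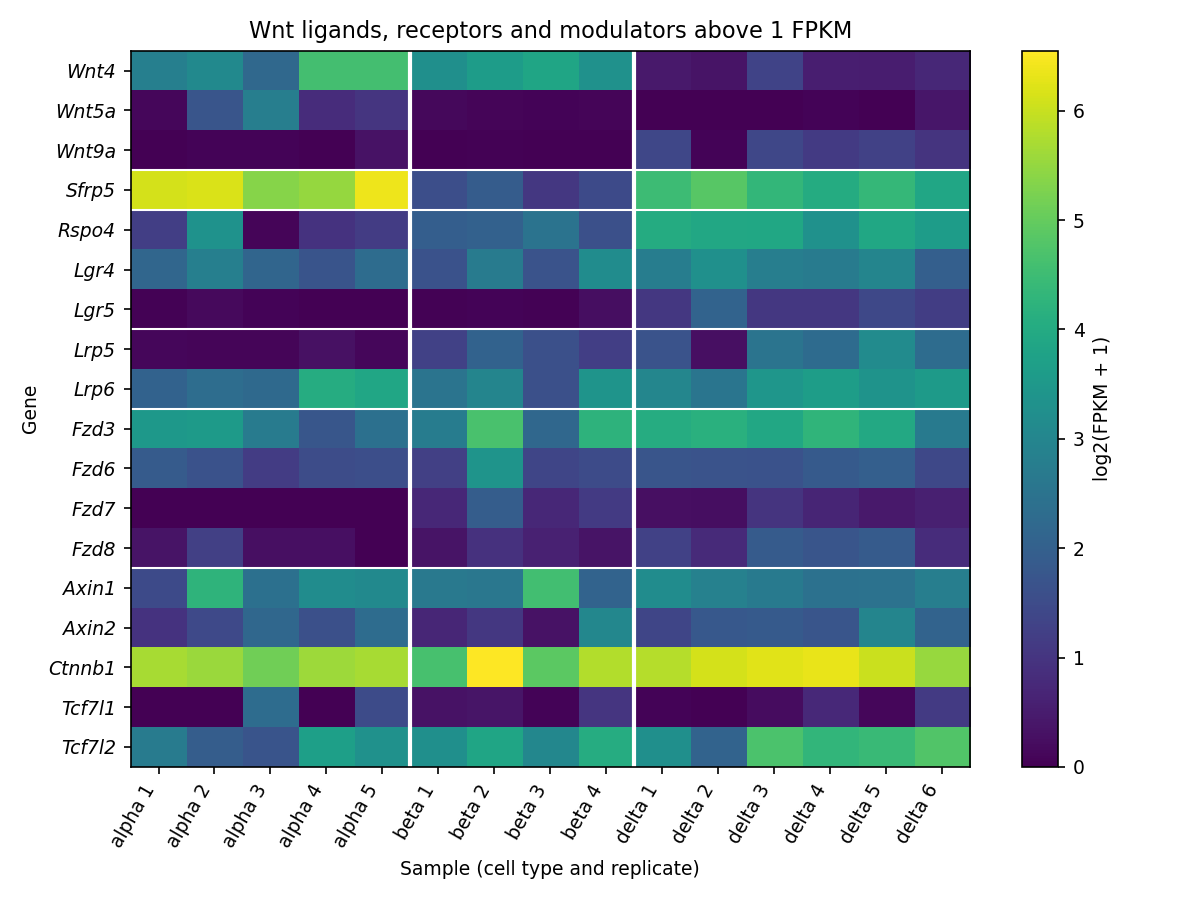
Level of the 18 tested genes in each of the 15 samples, as log2(FPKM + 1) on a colour scale; white lines part the cell types and the functional groups. Sfrp5 and Wnt4 were bright in alpha samples, Wnt4 without Sfrp5 in beta samples, and Sfrp5 and Rspo4 in delta samples. Rspo4 was also bright in alpha 2, whereas Ctnnb1 was high in all 15.

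The start regions of the 4 called genes for secreted proteins are given here, since they encode the secreted proteins among the members that differed between cell types. The sequences are RefSeq promoter windows of GRCm38.p6, ended before the first annotated base of the transcript, with each CpG in capitals. Rspo4 is shown for chr2:151842677-151842926 (plus strand), Sfrp5 for chr19:42202253-42202502 (minus strand), Wnt4 for chr4:137277385-137277488 (plus strand) and Wnt9a for chr11:59306680-59306927 (plus strand).
Rspo4: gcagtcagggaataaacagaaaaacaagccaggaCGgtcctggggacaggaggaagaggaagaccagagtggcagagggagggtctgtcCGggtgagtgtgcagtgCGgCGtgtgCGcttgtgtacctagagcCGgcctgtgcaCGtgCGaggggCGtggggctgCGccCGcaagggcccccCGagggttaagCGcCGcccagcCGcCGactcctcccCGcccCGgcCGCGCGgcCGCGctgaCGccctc
Sfrp5: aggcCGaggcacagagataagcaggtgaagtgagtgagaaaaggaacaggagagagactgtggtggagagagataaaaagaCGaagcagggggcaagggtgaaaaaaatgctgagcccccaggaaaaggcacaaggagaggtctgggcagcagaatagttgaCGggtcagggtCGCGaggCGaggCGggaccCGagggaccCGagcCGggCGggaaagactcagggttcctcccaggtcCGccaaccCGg
Wnt4: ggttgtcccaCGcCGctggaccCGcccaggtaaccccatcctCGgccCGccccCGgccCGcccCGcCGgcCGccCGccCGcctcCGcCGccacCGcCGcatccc
Wnt9a: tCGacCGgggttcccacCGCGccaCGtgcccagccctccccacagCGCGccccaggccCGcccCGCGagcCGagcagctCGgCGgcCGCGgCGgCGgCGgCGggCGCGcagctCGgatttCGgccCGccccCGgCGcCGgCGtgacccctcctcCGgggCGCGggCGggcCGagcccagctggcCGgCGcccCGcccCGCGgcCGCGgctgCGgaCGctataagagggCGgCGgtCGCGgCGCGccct
The CpG density per 100 bases was 19.4 for Wnt9a, 15.4 for Wnt4, 9.6 for Rspo4 and 5.2 for Sfrp5, beside a median of 2.4 over the 250 bases before the start of 32851 promoters. The windows were of unlike length, 250 bases for Rspo4 and Sfrp5, 248 for Wnt9a and 104 for Wnt4, so that the Wnt4 values cover less sequence than the others and than the background. None of the 4 windows held CTTTGAT (a TCF/LEF sequence), TAATTA (a homeodomain sequence) or TATAAA (the TATA box) on either strand, which 3.21%, 4.84% and 12.4% of all promoters held over 250 bases. These letters are not in the windows shown, which bears on nothing beyond them. Promoter entries were matched for 35 of the 53 genes.

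Wnt4, a ligand best known from kidney and reproductive tract development, had the highest mean of the Wnt transcripts in alpha and beta cells and was low in delta cells. It was the highest ligand in all 4 beta samples and in 4 of 5 alpha samples, the exception being alpha 3, where Wnt5a was higher. It lies at chr4:137277489-137299726 and has 1 annotated transcript. In alpha samples 1 to 5 it was at 6.06, 7.67, 3.66, 23.2 and 23.2 FPKM, in beta samples 1 to 4 at 8.64, 11.3, 13.3 and 8.98 FPKM, and in delta samples from 0.269 through a median of 0.453 to 1.48 FPKM. Every alpha and beta sample was above every delta sample, and alpha and beta samples overlapped. Over all 14405 genes, samples did not overlap in 6.64% for delta relative to alpha cells and in 14.9% for delta relative to beta cells. Mean Wnt4 was 20.9-fold lower in delta than alpha cells and 17.3-fold lower than in beta cells. On the log2(FPKM + 1) scale, which understates changes of genes at low levels, the difference was −2.82 ± 0.41 (SE) in delta relative to alpha cells (limma adjusted p = 0.000241) and −2.86 ± 0.43 in delta relative to beta cells (limma adjusted p = 0.000308). Beta and alpha cells differed by 0.04 ± 0.45 (limma adjusted p = 0.991). In a sorted pool, fewer expressing cells and less RNA per cell cannot be told apart.

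The alpha samples split by ribosomal set, with a mean Wnt4 of 5.80 FPKM in the 3 with the higher ribosomal sum and 23.2 FPKM in the 2 with the lower, and the part of library composition in this was not tested. Delta samples were lower in either set, at 0.314 FPKM (n = 2) and 0.758 FPKM (n = 4). The values corresponded to about 229 and 2391 reads in alpha samples 2 and 5, and to about 15, 11, 181 and 47 reads in delta samples 1 to 4. Wnt4 made up 80.1% of the summed level of the 19 ligands in alpha cells and 94.5% in beta cells. That sum was 15.9 ± 9.43 FPKM (SD, n = 5) in alpha, 11.2 ± 2.14 (n = 4) in beta and 2.91 ± 1.09 (n = 6) in delta cells.

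Wnt9a, a ligand studied in joint and blood stem cell development, had the highest mean of the Wnt transcripts in delta cells, at 39.5% of their summed ligand level. It was the highest ligand in 5 of 6 delta samples, and in delta 2 Wnt5b was, at 0.442 FPKM. It lies at chr11:59306928-59333552. It was at 0, 0.0440, 0.0372, 0 and 0.249 FPKM in alpha samples 1 to 5 and at 0, 0.0196, 0 and 0 FPKM in beta samples 1 to 4. In delta samples 1 to 6 it was at 1.65, 0.0371, 1.64, 1.18, 1.41 and 0.970 FPKM. Delta 2 thus lay within the alpha range, while the other 5 delta samples were above every alpha and beta sample. All 6 delta samples were above the beta samples. Mean Wnt9a was 17.4-fold higher in delta than alpha cells, and 56.6-fold without alpha 5. The log2 difference was 0.95 ± 0.27 (SE) in delta relative to alpha cells (limma adjusted p = 0.0441) and 1.03 ± 0.29 in delta relative to beta cells (limma adjusted p = 0.0239). The first of these calls was lost in 11 of the 15 fits that left out 1 sample, with limma adjusted p from 0.00376 without delta 2 to 0.102 without delta 3, and the second in 4 of 15, with limma adjusted p from 0.0027 to 0.0590. The first also did not pass under quantile normalization (0.60, limma adjusted p = 0.138) or with the ribosomal set as a covariate (0.89, limma adjusted p = 0.0593). Neither call passed with the replicate number as a block, for which the values are given in the last section. Among the 9 samples with the lower ribosomal sum the differences were 1.03 (limma adjusted p = 0.0908) and 1.19 (limma adjusted p = 0.0107), a subset chosen after the data were seen. Delta 2 had the second-highest summed duct marker level of all samples, 101 FPKM, beside 20.4 to 40.7 FPKM in the other delta samples. Of the 5 markers in that sum, Spp1 was highest in delta 2 of the delta samples (84.1 FPKM), Krt7 (15.7 FPKM) and Muc1 (1.31 FPKM) second-highest, Sox9 lowest (0.1125 FPKM) and Krt19 listed at 0 in all 6. Whether this bears on Wnt9a was not tested.

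Wnt9a lies 16175 bases from Wnt3a on the opposite strand, and Wnt3a was listed at 0 in all 15 samples. Wnt10a likewise lies 6193 bases from Wnt6, on the same strand, and Wnt6 was listed at 0 throughout. The pairs of Wnt9b with Wnt3, 24328 bases apart, and of Wnt10b with Wnt1, 11706 bases apart, hold 1 gene each that was listed at 0. In each of these 4 neighbouring pairs, then, only 1 gene had any value in these samples.

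Wnt5a, a ligand of the non-canonical branch, was at 0.0804, 2.29, 5.94, 0.793 and 1.01 FPKM in alpha samples 1 to 5. It was at 0.104, 0.0727, 0.0423 and 0.0553 FPKM in beta samples, and in delta samples from 0 through a median of 0.00718 to 0.325 FPKM. Alpha 1 overlapped both other cell types, and the other 4 alpha samples were above all of them. The differences of −1.20 ± 0.41 (SE) in beta relative to alpha cells (limma adjusted p = 0.0902) and −1.21 ± 0.37 in delta relative to alpha cells (limma adjusted p = 0.0665) did not pass. Without alpha 1 both passed, with limma adjusted p of 0.0313 and 0.0154. The difference in delta relative to alpha cells also passed with a pseudocount of 0.1 (limma adjusted p = 0.0237), a filter at 0.5 FPKM (limma adjusted p = 0.0493) and quantile normalization (limma adjusted p = 0.0349). The ranges over these alternatives and the others run were 0.0313 to 0.228 and 0.0154 to 0.153. In the low-value fit, which uses a pseudocount and a filter of 0.1, both passed as well (limma adjusted p = 0.0369 and 0.0117). The summed level of 6 stellate cell and fibroblast markers was also higher in alpha samples, at 0.848 to 3.82 FPKM in alpha, 0 to 0.00687 in beta and 0 to 0.101 in delta samples. Nearly all of that sum was Col1a2, while Col1a1, Lum and Pdgfrb were listed at 0 in every alpha sample, and the sum was lowest in alpha 3, where Wnt5a was highest. The part of such cells in the Wnt5a values was not tested further. Exons of Wnt5a overlap those of Gm2670 on the opposite strand, and without strand information their reads cannot be told apart.

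The other 9 ligands with a value were low in all cell types. The highest single value among them was 1.86 FPKM for Wnt2b. Wnt10a, named after its values were seen, had no value above 0 in any alpha or beta sample and had one in all 6 delta samples, from 0.0221 through a median of 0.0594 to 0.513 FPKM. In a separate fit for low values on log2(FPKM + 0.1), its F-test gave a limma adjusted p of 0.187.

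Frizzled receptors, the seven-pass membrane proteins that bind Wnts, gave 1 call among the 4 tested, Fzd7. Fzd3 made up 69.0% of the summed Frizzled level in alpha, 68.1% in beta and 72.9% in delta cells. It was at 10.2, 10.8, 5.63, 2.39 and 4.32 FPKM in alpha samples, at 5.71, 24.7, 3.54 and 17.95 FPKM in beta samples, and from 5.45 through a median of 15.02 to 18.5 FPKM in delta samples. The samples of all 3 cell types overlapped (limma F-test, adjusted p = 0.297). Within alpha cells the mean was 8.895 FPKM in the 3 samples with the higher ribosomal sum and 3.355 FPKM in the 2 with the lower, without overlap. Fzd6, the next most abundant, had means of 1.97 ± 0.519 (SD, n = 5), 3.57 ± 3.95 (n = 4) and 2.32 ± 0.434 FPKM (n = 6) in alpha, beta and delta cells (limma F-test, adjusted p = 0.801), and its beta mean rested on 9.48 FPKM in beta 2.

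Fzd7, a receptor used by several stem cell types, was listed at 0 in all 5 alpha samples. In beta samples 1 to 4 it was at 0.663, 2.80, 0.654 and 1.15 FPKM, and in delta samples from 0.181 through a median of 0.433 to 0.996 FPKM. Every beta and delta sample was therefore above every alpha sample, while beta and delta samples overlapped. Beta against alpha cells gave a limma adjusted p of 0.0308. Its fitted difference, 1.12 ± 0.30 (SE) on the log2(FPKM + 1) scale, depends on the pseudocount, since alpha cells were at 0. Delta against alpha cells differed by 0.54 ± 0.27 (limma adjusted p = 0.339), and by 2.36 in the low-value fit with a pseudocount of 0.1, where it passed (limma adjusted p = 0.0055). Beta and alpha samples did not overlap in 8.12% of the 14405 genes. The call was lost with the replicate number as a block, for which the value is given in the last section. It was also lost without alpha 1, alpha 2 or beta 4 (limma adjusted p = 0.0554, 0.0593 and 0.0744). Without beta 2, the highest sample, the gene fell below 1 FPKM in every cell type and was not tested, nor was it among the 9 samples with the lower ribosomal sum. Its values corresponded to about 10, 8, 132 and 66 reads in delta samples 1 to 4 and to 0 reads in alpha samples 2 and 5.

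Fzd8, named after its values were seen, was at 0.265, 1.37, 0.209, 0.196 and 0 FPKM in alpha samples, at 0.277, 0.922, 0.519 and 0.272 FPKM in beta samples and from 0.712 through a median of 1.85 to 2.71 FPKM in delta samples. Only alpha 2 and beta 2 reached into the delta range. The difference of 0.97 ± 0.31 (SE) in delta relative to alpha cells did not pass (limma adjusted p = 0.0795); without alpha 2 it was 1.17 (limma adjusted p = 0.0308), without delta 2 it was 1.09 (limma adjusted p = 0.0451), and with a pseudocount of 0.1 it was 2.25 (limma adjusted p = 0.0437), beside a range of 0.0308 to 0.303 over the alternatives.

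Of the co-receptors, Lrp5 was called across cell types and was low in alpha cells, and Lrp6 was not called. Lrp5, at chr19:3584828-3686564, was at 0.0765, 0.0589, 0.0576, 0.216 and 0.0887 FPKM in alpha samples 1 to 5 and at 1.40, 3.18, 2.04 and 1.31 FPKM in beta samples 1 to 4. In delta samples 1 to 6 it was at 2.17, 0.210, 4.72, 3.92, 7.99 and 3.95 FPKM. All beta samples, and all delta samples but delta 2, were above every alpha sample. Delta 2, at 0.210 FPKM, lay just below alpha 4. Mean Lrp5 was 38.5-fold higher in delta than alpha cells and 19.9-fold higher in beta than alpha cells. The log2 difference was 1.90 ± 0.40 (SE) in delta relative to alpha cells (limma adjusted p = 0.00642), and 2.26 without delta 2. Within delta cells the mean was 1.188 FPKM in the 2 samples with the higher ribosomal sum and 5.145 FPKM in the 4 with the lower, without overlap. In beta relative to alpha cells it was 1.40 ± 0.44 and did not pass (limma adjusted p = 0.0676). The same difference passed under a pseudocount of 0.1, both other scalings, the fit of these cell types alone and without delta 2 (limma adjusted p = 0.00421 to 0.0331), within a range of 0.00421 to 0.182 over the alternatives.

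Lrp6 had means of 8.02 ± 6.01 (SD, n = 5), 5.78 ± 3.19 (n = 4) and 8.90 ± 2.53 FPKM (n = 6) in alpha, beta and delta cells (limma F-test, adjusted p = 0.581). In alpha cells it followed the ribosomal sets, at 3.16, 4.09 and 3.76 FPKM in samples 1 to 3 and at 15.5 and 13.6 FPKM in samples 4 and 5. Lrp6 was thus 80.7-fold above Lrp5 in alpha, 2.91-fold in beta and 2.33-fold in delta cells, as ratios of mean FPKM.

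Rspo4, an R-spondin known from nail development, and Lgr5, a receptor for R-spondins and a marker of intestinal stem cells, were both higher in delta cells. Rspo4, at chr2:151842927-151874668, accounted for 99.9% or more of the summed R-spondin level in each cell type. It was at 1.33, 9.07, 0.0564, 0.957 and 1.22 FPKM in alpha samples 1 to 5 and at 2.87, 3.07, 4.66 and 2.01 FPKM in beta samples 1 to 4. In delta samples it ranged from 8.96 through a median of 13.9 to 15.4 FPKM. All delta samples were above all beta samples. They were also above 4 of the 5 alpha samples, and alpha 2, at 9.07 FPKM, lay just above the lowest delta sample. Mean Rspo4 was 5.14-fold higher in delta than alpha cells, or 14.6-fold without alpha 2, and 4.12-fold higher than in beta cells.

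The log2 difference of Rspo4 was 2.44 ± 0.43 (SE) in delta relative to alpha cells (limma adjusted p = 0.00169) and 1.77 ± 0.46 in delta relative to beta cells (limma adjusted p = 0.0168). Without alpha 2 the former was 2.93. The latter did not pass without beta 4 (1.63, limma adjusted p = 0.0614), under size factors (1.37, limma adjusted p = 0.0636) or with a pseudocount of 0.1 (2.05, limma adjusted p = 0.0716), within a range of 0.00112 to 0.0716 over the alternatives. The delta marker sum was 2886 FPKM in alpha 2 and 3346 FPKM in alpha 3, the alpha samples with the highest and the lowest Rspo4. Alpha 2 also had the highest summed duct marker level of all samples, 172 FPKM. Among alpha samples Spp1 (157 FPKM) and Krt7 (12.2 FPKM) were highest in alpha 2 and Krt19 (2.98 FPKM) second-highest, while Sox9 and Muc1 were listed at 0 there, Sox9 as in 4 of the 5. The part of this in the Rspo4 value was not tested. Mean Rspo4 in alpha cells was 19.5% of the delta level (6.86% without alpha 2), where the delta marker sum was 1.38%. In beta cells the same shares were 24.3% and 0.103%. The values corresponded to about 147 and 68 reads in alpha samples 2 and 5 and to 304 to 916 reads in delta samples 1 to 4.

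Lgr5, at chr10:115450311-115587780, was at 0.0244, 0.122, 0.0413, 0.0142 and 0.0174 FPKM in alpha samples 1 to 5 and at 0.0212, 0.0422, 0.0263 and 0.191 FPKM in beta samples 1 to 4. In delta samples 1 to 6 it was at 1.09, 3.23, 1.07, 1.09, 1.70 and 1.27 FPKM. Each delta sample was above each alpha and beta sample, and alpha and beta samples overlapped. Mean Lgr5 was 36-fold higher in delta than alpha cells, or 64.7-fold without alpha 2, and 22.4-fold higher than in beta cells, or 52.7-fold without beta 4. The log2 difference was 1.25 ± 0.25 (SE) against alpha cells (limma adjusted p = 0.00371) and 1.22 ± 0.26 against beta cells (limma adjusted p = 0.00500). Among the 9 samples with the lower ribosomal sum these were 1.16 (limma adjusted p = 0.0542) and 1.08 (limma adjusted p = 0.0156). Under quantile normalization neither passed (limma adjusted p = 0.0826 and 0.0656), beside ranges of 0.000513 to 0.0826 and 0.00105 to 0.0656 over the alternatives. Delta 2, with the highest Lgr5, also had the highest duct marker sum of the delta samples, whose 5 markers are given with Wnt9a, and the part of this was not tested.

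Lgr4, the most abundant of these receptors, had means of 3.84 ± 1.41 (SD, n = 5), 4.52 ± 2.903 (n = 4) and 6.00 ± 1.91 FPKM (n = 6) in alpha, beta and delta cells, with overlapping samples (limma F-test, adjusted p = 0.479). It made up 98.2% of the summed Lgr4 to Lgr6 level in alpha, 97.9% in beta and 78.2% in delta cells, where Lgr5 was most of the rest. Lgr6 reached at most 0.232 FPKM in any sample. Delta cells had the highest mean R-spondin level. Lgr5 had a mean above 1 FPKM in delta cells alone, which is how it came to be tested. That mean was 1.57 FPKM, beside a median of 1.18 and a value of 3.23 in delta 2. The summed level of 5 endothelial markers was 2.96 to 6.17 FPKM in delta, 1.47 to 2.88 in alpha and 0.619 to 3.34 in beta samples, with Cdh5 listed at 0 in every alpha sample. Most of that sum was Esam, at 2.81 to 5.22 FPKM in delta samples. The delta means of Cdh5, Kdr, Plvap and Pecam1 were 0.0188, 0.0621, 0.201 and 0.322 FPKM. That of 6 acinar markers was 2.30 to 474 FPKM in delta, 0.122 to 63.8 in alpha and 0.0283 to 10.1 in beta samples, with the highest value in delta 4. That of 4 immune markers was 0 to 8.62 FPKM in delta, with the highest value in delta 6, 0.615 to 1.83 in alpha, where Ptprc was listed at 0 throughout, and 0.0277 to 2.79 in beta samples. In delta 6 it was mostly Cd74 (6.60 FPKM) and Cd68 (2.00 FPKM), and Ptprc was above 0 in delta 4 alone of the delta samples. The part of these 3 lists in the genes that were higher in delta cells was not tested.

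**Figure D2:**
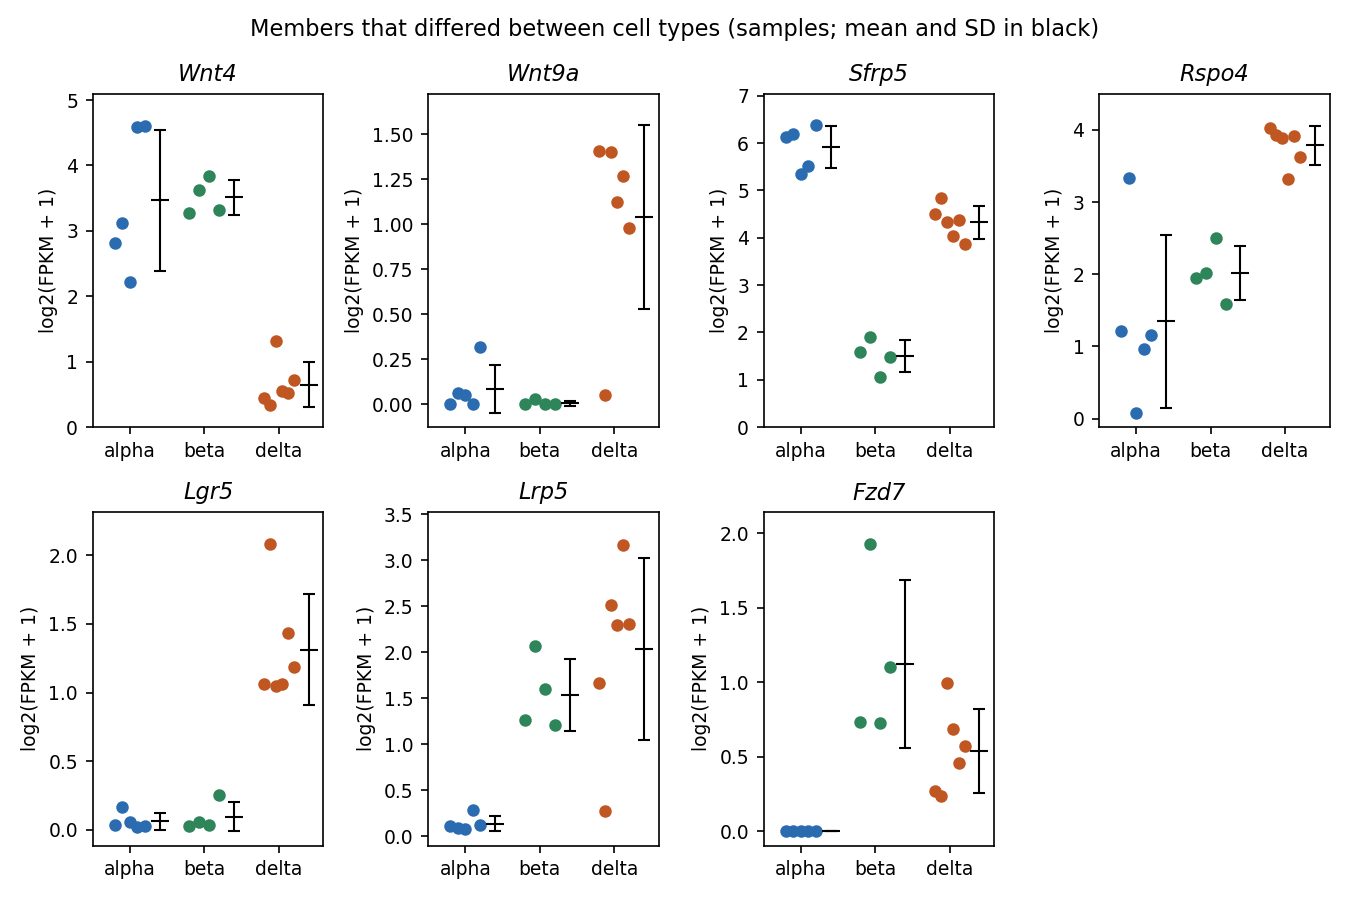
Level of the 7 genes that differed across the cell types, as log2(FPKM + 1) against cell type, with 1 point a sample (alpha n = 5, beta n = 4, delta n = 6) and the mean and SD in black. Delta samples were separate from all others for Lgr5, Wnt4 and Sfrp5. Delta 2 lay below the other delta samples for Wnt9a and Lrp5 and above them for Lgr5.

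Sfrp5, a secreted Frizzled-related protein that binds Wnts, was the only one of the 8 secreted inhibitors among the 53 genes above 1 FPKM on average in any cell type. Of the 18 tested members it had the largest difference between cell types on the log2(FPKM + 1) scale. It lies at chr19:42197971-42202252 and has 1 annotated transcript. It was at 68.7, 71.9, 40.0, 45.0 and 82.5 FPKM in alpha samples 1 to 5 and at 1.99, 2.73, 1.09 and 1.78 FPKM in beta samples 1 to 4. In delta samples it ranged from 13.6 through a median of 19.4 to 27.8 FPKM. No sample of any cell type overlapped another cell type, in the order alpha, delta, beta. Mean Sfrp5 was 32.5-fold lower in beta than alpha cells, 3.16-fold lower in delta than alpha cells and 10.3-fold higher in delta than beta cells. The log2 differences were −4.41 ± 0.33 (SE, limma adjusted p = 4.81e-07), −1.59 ± 0.30 (limma adjusted p = 0.0027) and 2.82 ± 0.32 (limma adjusted p = 1.96e-05). All 3 passed under every alternative run, including among the 9 samples with the lower ribosomal sum.

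Sfrp5 in delta cells was 31.7% of its alpha level, where the alpha marker sum in delta cells was 0.205% of its alpha level and Gcg 0.189%. Ppy, the marker of PP cells, was also high in alpha and delta samples and low in beta samples (ranges above), and its part in the Sfrp5 levels was not tested. In beta cells Sfrp5 was 3.08% of its alpha level and the alpha marker sum 0.391%. Sfrp5 ranked 946 of 38283 genes by mean FPKM in alpha cells, 2671 in delta cells and 9727 in beta cells. By its level in alpha cells it was the highest of the 53 genes, above Ctnnb1. Of the other secreted inhibitors, Sfrp1 reached at most 0.430 FPKM in any sample, with means of 0.00405, 0.0042 and 0.132 FPKM in alpha, beta and delta cells (low-value fit, limma adjusted p = 0.237). Dkk1, Dkk2 and Sfrp2 stayed at or below 0.304 FPKM in every sample.

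None of the 5 tested genes for Axin, beta-catenin and TCF/LEF factors was called across cell types or in any pair of them by limma, and 0 of 5 had an unadjusted F-test p under 0.05. Ctnnb1, which encodes beta-catenin, had means of 45.7 ± 6.75 (SD, n = 5), 50.02 ± 31.4 (n = 4) and 64.8 ± 12.7 FPKM (n = 6) in alpha, beta and delta cells (limma F-test, adjusted p = 0.488). The beta samples spread the most, at 24.0, 92.6, 28.9 and 54.6 FPKM, and they covered the whole range of the other cell types. Exons of Ctnnb1 overlap those of Ulk4 on the opposite strand.

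Tcf7l2, the leading TCF/LEF factor, made up 83.2% of the summed level of the 4 such genes in alpha, 95.0% in beta and 96.5% in delta cells. It was at 5.65, 2.81, 2.27, 11.96 and 8.996 FPKM in alpha samples, at 8.54, 13.5, 7.17 and 15.5 FPKM in beta samples and at 8.65, 3.21, 24.8, 18.9, 20.7 and 26.3 FPKM in delta samples. The difference of 1.25 ± 0.51 (SE) in delta relative to alpha cells did not pass (limma adjusted p = 0.197) and was the only one of the 5 genes with an unadjusted p under 0.05 in that comparison. In alpha and delta cells its level followed the ribosomal sets. In the samples with the higher ribosomal sum the means were 3.58 FPKM in alpha (n = 3) and 5.93 FPKM in delta cells (n = 2), and in those with the lower sum 10.5 FPKM (n = 2) and 22.7 FPKM (n = 4). Beta cells did not follow them, at 13.5 FPKM in the 1 sample with the higher sum and a mean of 10.4 FPKM in the other 3. The delta mean was above the alpha mean in either set. With the higher sum the samples overlapped, delta 2 (3.21 FPKM) being below alpha 1 (5.65 FPKM), and with the lower sum they did not. A difference between sets was not tested.

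Axin1, Axin2 and Tcf7l1, named after their values were seen, gave no call and ranged widely within cell types. Axin2, which is itself a common target of the canonical branch, was at 0.947, 1.73, 3.59, 2.04 and 4.00 FPKM in alpha samples, at 0.620, 1.10, 0.247 and 7.22 FPKM in beta samples, and from 1.58 through a median of 2.57 to 6.85 FPKM in delta samples (limma F-test, adjusted p = 0.564). Axin1 ranged from 1.78 to 18 FPKM in alpha, from 3.26 to 22.9 in beta and from 4.40 to 8.07 in delta samples (limma F-test, adjusted p = 0.928). Tcf7l1 was listed at 0 in 3 of 5 alpha samples and at 3.98 and 1.82 FPKM in alpha 3 and 5. Lef1 and Tcf7 stayed at or below 0.440 FPKM in every sample. Exons of Axin2 and Tcf7l1 overlap genes on the opposite strand.

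**Figure D3:**
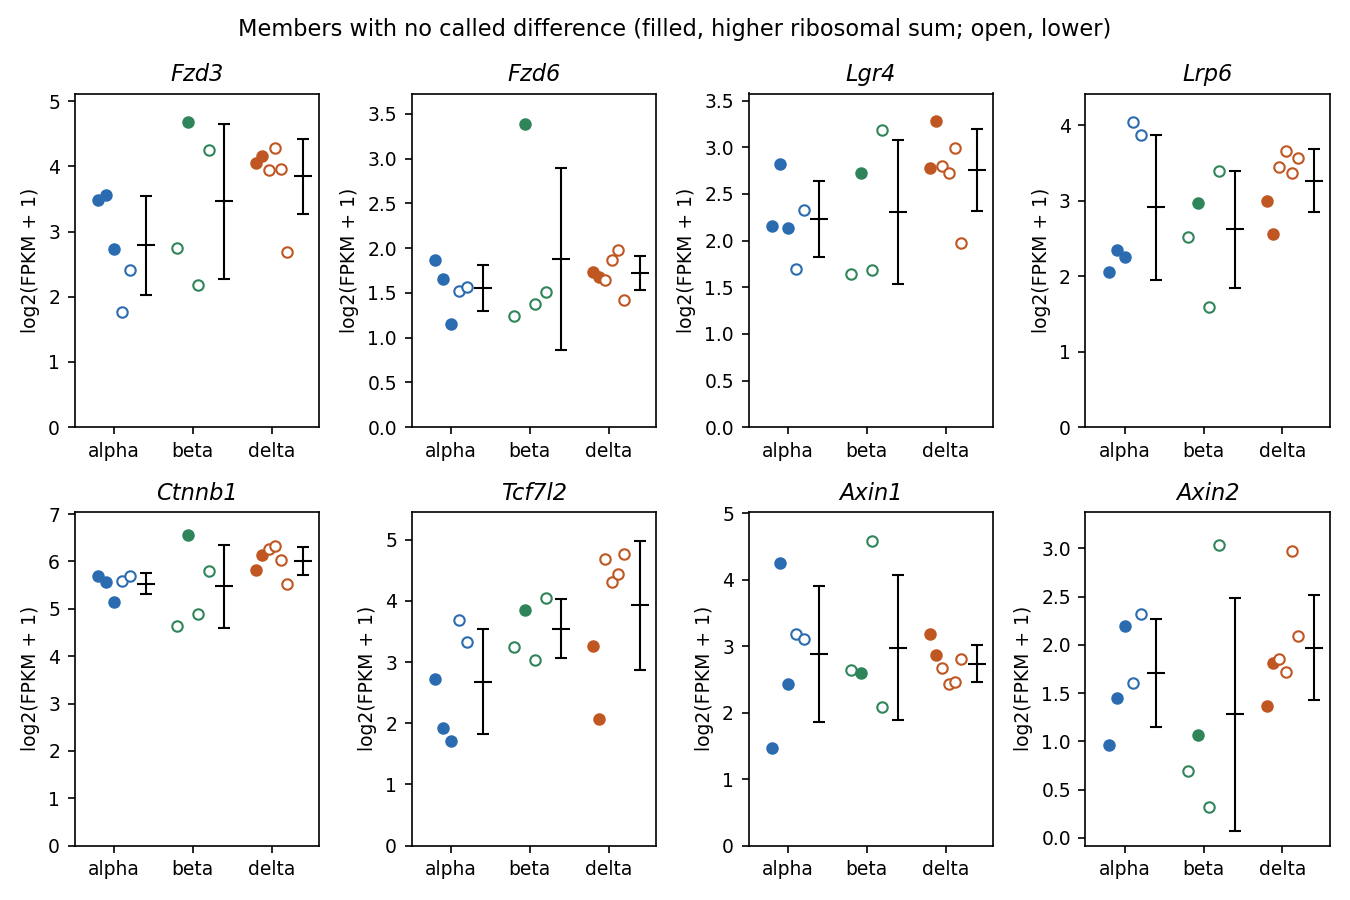
Level of 8 genes with no called difference, as log2(FPKM + 1) against cell type, with filled points for the 6 samples with the higher ribosomal sum, open points for the other 9, and the mean and SD in black. The cell types overlapped for all 8 (Fzd3, Fzd6, Lgr4, Lrp6, Ctnnb1, Tcf7l2, Axin1 and Axin2), and filled and open points parted within alpha cells for Fzd3, Lrp6 and Tcf7l2.

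The genes below 1 FPKM gave no call. Of the 35 genes not tested, 9 had a mean above 0.1 FPKM in a cell type (Fzd1, Fzd4, Fzd5, Lef1, Sfrp1, Wnt2b, Wnt5b, Wnt7a and Wnt10a). Fitted on log2(FPKM + 0.1) with all 19804 genes above that level, 0 of the 9 passed the limma F-test at an adjusted p under 0.05, 0 had an unadjusted p under 0.05, and 1 passed with a pseudocount of 0.01. In the same fit 14.6% of all genes were called, and 6.91% of those at or below 1 FPKM in every cell type. Fzd1, at 1.22 FPKM in alpha 2, corresponded to about 37 reads there.

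Other genes of the pathway were read from a list of 66 that excludes the 53, of which 65 were in the table and 47 tested. Across the cell types 15 of the 47 (31.9%) were called, beside 16.0% of all genes. In beta relative to alpha cells 1 was higher and 3 lower, in delta relative to alpha cells 5 were higher and 1 lower, and in delta relative to beta cells 12 were higher and 1 lower. The background for those directions is given above, and in delta relative to beta cells size factors took the share of higher calls among all genes from 79.6% to 51.5%. The median difference of the 47 genes was −0.18, 0.37 and 0.50 in the 3 comparisons. By function, the calls were 1 of 2 tested genes of Wnt secretion, 3 of 6 co-receptor and receptor turnover genes, 0 of 3 inhibitors (limma, 2 with an unadjusted p under 0.05), 2 of 12 cytoplasmic, 3 of 11 nuclear cofactor, 2 of 9 planar polarity and 4 of 4 target genes. The list held 8 target genes. Of those not tested, Ascl2 and Sp5 were listed at 0 in all 15 samples, and Bmp4 and Tnfrsf19 reached at most 0.0239 and 0.212 FPKM. Axin2, a target gene among the 53, was not called.

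Rnf43 and Znrf3 encode the ubiquitin ligases on which R-spondins and LGR receptors act. Rnf43 was at 0 to 0.357 FPKM in alpha samples, at 0.0653 to 0.559 FPKM in beta samples and from 1.49 through a median of 2.77 to 9.05 FPKM in delta samples. Its mean passed 1 FPKM in delta cells alone (3.59, beside 0.106 in alpha and 0.235 in beta cells), which gave it the head start described above. Each delta sample was above each alpha and beta sample. Over all 14405 genes, samples did not overlap in 6.64% and 14.9% for these comparisons. The differences were 1.87 ± 0.34 (SE, limma adjusted p = 0.00186) and 1.72 ± 0.36 (limma adjusted p = 0.0041). Znrf3 was at 2.11 to 8.88 FPKM in alpha, 0.831 to 2.21 in beta and 2.41 to 9.69 in delta samples. It was higher in delta than beta cells (1.47 ± 0.40, limma adjusted p = 0.0200) and did not pass against alpha cells (0.72 ± 0.37, limma adjusted p = 0.369). Its level also went with the ribosomal sets. In samples with the higher sum the means were 2.40 FPKM in alpha (n = 3), 0.831 in beta (n = 1) and 3.15 in delta cells (n = 2). With the lower sum they were 5.88 (n = 2), 1.88 (n = 3) and 8.42 FPKM (n = 4).

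Wls, the carrier that takes Wnt proteins to the cell surface, had its lowest mean in delta cells over all samples. It was at 16.6, 17.9, 23.2, 3.17 and 6.03 FPKM in alpha samples, at 17.2, 91.5, 13.98 and 30.6 FPKM in beta samples and from 3.20 to 7.46 FPKM in delta samples. It was lower in delta than beta cells (−2.22 ± 0.55 SE, limma adjusted p = 0.0120), with no overlap, and did not pass against alpha cells (−0.89 ± 0.52, limma adjusted p = 0.436). In alpha cells it followed the ribosomal sets, and among the samples with the lower ribosomal sum the alpha mean of 4.60 FPKM (n = 2) was below the delta mean of 4.91 FPKM (n = 4), whereas Wnt4 was lower in delta cells in either set. Ror2, a Wnt5a receptor named after its values were seen, was at 0.568 to 4.52 FPKM in alpha, 0.386 to 1.96 in beta and 0.0268 to 0.268 in delta samples, and was lower in delta than alpha cells (−1.39 ± 0.33, limma adjusted p = 0.0156).

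Among target genes, Cd44, a cell surface adhesion receptor, had the largest difference of the list. It was at 0.0998 to 1.39 FPKM in alpha, 3.44 to 8.91 in beta and 12.7 to 43.8 in delta samples, so that the cell types did not overlap. The differences were 4.65 ± 0.36 (SE) in delta relative to alpha cells (limma adjusted p = 4.26e-07), 2.46 ± 0.40 in beta relative to alpha cells (limma adjusted p = 0.00101) and 2.19 ± 0.39 in delta relative to beta cells (limma adjusted p = 0.00111). Ccnd1, which encodes cyclin D1, was at 18.9 to 34.3 FPKM in alpha, 11.7 to 38.9 in beta and 44.2 to 85.8 in delta samples, and was higher in delta than alpha cells (1.26 ± 0.34, limma adjusted p = 0.0311) and beta cells (1.54 ± 0.36, limma adjusted p = 0.00849). Id2, an inhibitor of helix-loop-helix factors, was higher in delta than alpha cells (1.70 ± 0.47, limma adjusted p = 0.0383) with 22.2 FPKM in delta 2 and 1.77 to 8.60 FPKM in the others. Each of these genes is known to answer to signals other than Wnt as well.

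Of the cytoplasmic genes, Dvl2, a Dishevelled protein that carries the signal from Frizzled, and Csnk1e, the casein kinase 1 epsilon gene, were lowest in beta cells. Dvl2 was at 2.52 to 9.36 FPKM in alpha, 0.423 to 0.962 in beta and 1.45 to 8.28 in delta samples. Beta samples lay below all others, by −1.61 ± 0.40 (SE) against alpha cells (limma adjusted p = 0.0228), and delta cells were higher than beta cells by 1.51 ± 0.39 (limma adjusted p = 0.0148). Csnk1e was lower in beta than alpha cells (−1.64 ± 0.44, limma adjusted p = 0.0337) and higher in delta than beta cells (1.58 ± 0.43, limma adjusted p = 0.0204). The Groucho family corepressor genes Tle4 (1.60 ± 0.29, limma adjusted p = 0.0012) and Aes (1.74 ± 0.46, limma adjusted p = 0.0174) were also higher in delta than beta cells.

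**Figure D4:**
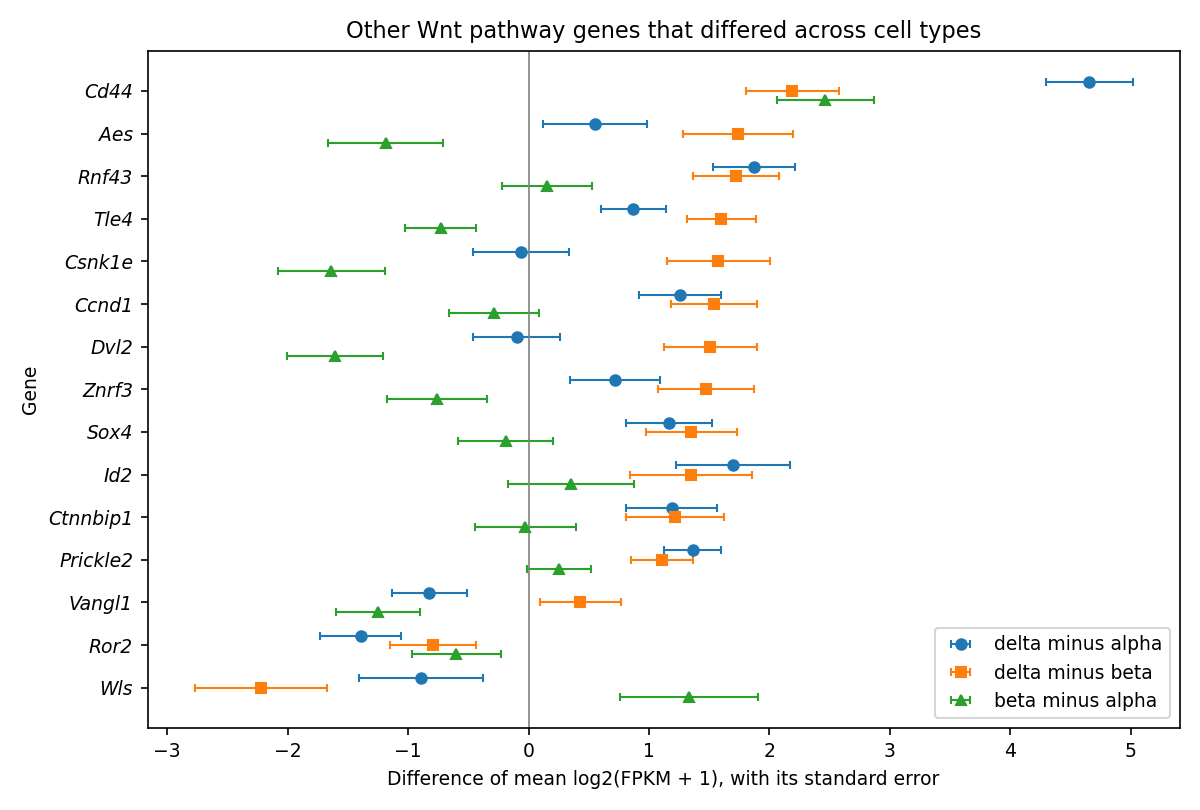
Differences of mean log2(FPKM + 1) between cell types, with their standard errors, for the 15 other pathway genes called across cell types. Cd44 lay farthest to the right in delta minus alpha, and Wls and Ror2 were the genes below 0 in delta minus beta.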

How the data were processed

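RNA of 15 sorted islet cell samples was extracted, amplified with the NuGEN Ovation RNA-Seq System V2 and sequenced by the authors as single reads. Per the labels and the study's methods, the authors aligned reads to GRCm38 with TopHat, and the deposited table holds the FPKM that Cufflinks 2.2.1 gave for each gene and sample. The submitters' processing notes give TopHat2 2.0.8, which differs from the version named in the study's methods. The annotation release and any scaling between libraries are not given in the sources used here.

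Genes with a mean above 1 FPKM in at least 1 cell type (14405) were fitted as log2(FPKM + 1) with limma 3.58.1 in R 4.3.3 (lmFit, eBayes with a trend, all 15 samples, no covariate). P-values (two-sided for contrasts) were adjusted by Benjamini-Hochberg over all genes tested, and calls had an adjusted p under 0.05. A second fit for low values used a pseudocount and filter of 0.1. The fit was tested on simulated data. Members were named where called, where among the 2 most abundant of their class, or as Lgr5 and Wnt9a; others are said to have been named after their values were seen. Of the wider list, the 10 called genes with the largest differences could be named. The members and lists were chosen with earlier results of these data known. Coordinates and exon overlaps are from GENCODE M21 (GRCm38) and promoters from RefSeq (GRCm38.p6). Other steps used Python 3.11.15, numpy 2.4.6, pandas 2.3.3 and matplotlib 3.10.9.

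Whether same-numbered samples pair is not stated in the sources used here. Alternatives were pseudocounts, filters, median-ratio size factors, quantile normalization, the replicate number as a block, the ribosomal set as a covariate, fits of 2 cell types alone, leaving out each sample in turn and, chosen after the data were seen, only the 9 samples with the lower ribosomal sum.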

Additional observations from a re-analysis of the deposited data

Results flagged for a closer look

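Of 57 groups of 4 to 6 samples examined for a highest or lowest sample far from the others by Dixon's test, 18 had one, where chance gives about 2.85 (1 in 20) for normally distributed values. That share does not hold for skewed FPKM with zeros, and Wnt9a in beta 2 and Sfrp1 in alpha 5 were single values above 0 among zeros, which the test always picks out. The groups are not independent, since a sample that stands apart can do so in many genes. Among the genes called across cell types these were Rspo4 in alpha 2 (9.07 FPKM), Wnt4 in delta 3 (1.48 FPKM), Lrp5 in alpha 4 (0.216 FPKM), Lgr5 in alpha 2 (0.122 FPKM), beta 4 (0.191 FPKM) and delta 2 (3.23 FPKM), and Wnt9a in alpha 5 (0.249 FPKM) and beta 2 (0.0196 FPKM). The values of Rspo4 in alpha 2, Lrp5 in alpha 4 and Wnt9a in alpha 5 each exceeded the lowest delta sample of the same gene.

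Among the other genes, Axin1 stood apart in beta 3 (22.9 FPKM), Axin2 in beta 4 (7.22 FPKM) and delta 5 (6.85 FPKM), Fzd6 in beta 2 (9.48 FPKM), Fzd8 in alpha 2 (1.37 FPKM), Wnt5a in delta 6 (0.325 FPKM), Wnt10a in delta 1 (0.513 FPKM) and Sfrp1 in alpha 5 (0.0203 FPKM), all as the highest of their group. Ctnnb1 in alpha 3 (34.1 FPKM) and Fzd3 in delta 6 (5.45 FPKM) were the lowest of theirs.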

How the results depend on the processing

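Of 411 alternative values for 17 differences of single genes, 368 kept their direction and side of the threshold, 30 no longer passed, 13 newly passed and 0 changed direction. A filter at a mean above 5 FPKM, which leaves fewer genes, gave 3 members called across cell types (7 in the report), 1 in beta against alpha (2), 3 in delta against alpha (6), 3 in delta against beta (5) and 6 of the wider list (15), for which no filter also gave 6. Of the 7, Lrp5, Lgr5, Fzd7 and Wnt9a could not be tested at that filter, since their highest means were 3.83, 1.57, 1.31 and 1.15 FPKM. Among the 9 samples with the lower ribosomal sum, 1 member was called in beta against alpha and 8 in delta against beta cells. A pseudocount of 0.01 gave 1 low member called (0 in the report). The causes were not tested. With 1 sample left out at a time, the counts were 5 to 9 across cell types, 1 to 3, 5 to 8 and 3 to 5 in the 3 comparisons, 0 among low members and 7 to 15 of the wider list. The beta against alpha count was 1 without alpha 2, beta 2 or beta 4, the delta against beta count 3 without beta 4, and the wider count 7 without beta 4, 8 without delta 5 and 9 without beta 1, beta 3, delta 3 or delta 4.

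Same-numbered samples deviated together by more than a correlation of 0.1 in 5 of 13 pairs (−0.152 to 0.281), among them the 3 pairs of number 2 (0.268 to 0.281), and 3 of 14 samples correlated best with their own number in another cell type. This did not meet the rule for pairing, by which every pair had to exceed 0.1, and whether a number marks a shared sort is not stated in the sources used here. With the replicate block, members called were 5 across cell types, 1 in beta against alpha, 5 in delta against alpha and 4 in delta against beta cells, 0 low members and 9 of the wider list. Wnt9a did not pass in delta against alpha or beta cells (limma adjusted p = 0.0721 and 0.0519), nor Fzd7 in beta against alpha cells (limma adjusted p = 0.0569). Read depth, unknown in 9 samples, limits what can be said of genes below 1 FPKM.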
